A study of Mus musculus with 5375 samples.

Results

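The genes described here encode the proteins of the cytosolic ribosome. Members were all genes of the raw count tables whose symbol is Rpl or Rps followed by a digit, together with Rplp0, Rplp1, Rplp2 and Rpsa, and symbols with -ps or starting with Rps6k were left out. This gave 93 members among 35308 genes of the endothelial cell (EC) tables and the same 93 among 35299 genes of the tumor cell (TC) tables. The rule reads symbols and no measured value, so it also takes in genes that are not ribosomal subunits, such as Rps19bp1, whose product binds Rps19, and 7 loci that GENCODE M21 annotates as pseudogenes (Rpl32l, Rpl37rt, Rpl6l, Rps12l1, Rps3a2, Rps3a3 and Rps4l). The other 86 members are annotated as protein-coding, and the members lie on 19 chromosomes.

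The study followed lung colonization in wild-type female BALB/c mice that received 4T1-GFP cells, a BALB/c breast cancer line expressing green fluorescent protein and stained with the division-diluted dye CellTrace, through the tail vein. ECs, sorted as CD31-positive cells without CD45, PDPN, LYVE1 and TER119, came from uninjected mice (day 0, 4 mice) and from injected mice on day 1.5 (3 mice) and day 3.5 (3 mice). TCs came from culture before injection (1 pool), from the vessels on day 1.5 (intravascular, stained by an antibody to H-2Kd given into the circulation; 4 mice), from the tissue of the same 4 mice on the same day (extravascular, unstained), and from day 3.5 as dye-retaining (latent, 4 mice) or dye-diluted (proliferative) cells. Every GEO sample was 1 cell in a plate, sequenced by a modified SMART-Seq2 protocol without molecular identifiers, and all TCs descended from 1 injected line. The proliferative cells carry 4 replicate numbers in the labels, and the paper describes matched latent and proliferative plates from 4 replicates. The deposited annotation places all proliferative cells in 1 mouse, so they were handled as 1 pool. Each sort gate of TCs was also sequenced on a lane of its own, and gate and lane cannot be told apart. EC libraries of different days shared no lane either, so day and lane cannot be told apart in ECs.

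Cytosolic ribosomes are assembled in the nucleolus from ribosomal RNA and from the small-subunit (Rps) and large-subunit (Rpl) proteins, and their messages are among the most abundant of a growing cell. Most of these messages begin with a terminal oligopyrimidine (TOP) tract, a C followed by a run of C and T at the transcription start, through which the growth-regulating kinase mTOR controls their translation and storage. Mammalian genomes also hold many retrotransposed copies of these genes, and a short read often cannot be assigned to the gene or to its copy.

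Estimated counts of the cells that the authors kept were summed over each mouse and group, which gave 10 EC libraries of 75.6 to 129.5 M reads (M stands for 1000000) from 180 to 335 cells each. The 12 TC libraries from mice held 31.9 to 49.9 M reads from 69 to 85 cells. The culture pool held 92.1 M reads and the proliferative pool 163 M reads. Levels are given in CPM, the reads of a gene per 1000000 reads of all genes of a library. A summed level of 8 endothelial markers lay between 6996 and 11296 CPM in EC libraries and between 9.36 and 33.0 CPM in TC libraries, and 6 epithelial markers of 4T1 cells gave 2711 to 6317 CPM in TC libraries and at most 21.6 CPM in EC libraries. The labelled cell types therefore carried their defining markers. Immune markers (9 genes) reached 49.9 CPM at most, except for 245 CPM in 1 latent library.

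The copies bear on every level below, so the sequences of 4 members beside their like-genes are shown first, 2 families whose loci share stretches and 2 pairs whose loci do not. Each line gives the same 50 bases of the coding sequence of a gene and of its like-gene, read on the gene's strand from GRCm38 with GENCODE M21, and capitals mark bases that differ from the first gene of the pair.
Rps12: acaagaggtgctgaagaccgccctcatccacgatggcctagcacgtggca
Rps12l1: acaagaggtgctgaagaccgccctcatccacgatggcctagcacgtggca
Rps27: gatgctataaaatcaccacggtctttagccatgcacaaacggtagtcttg
Rps27rt: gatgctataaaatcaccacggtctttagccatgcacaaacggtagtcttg
Rps27l: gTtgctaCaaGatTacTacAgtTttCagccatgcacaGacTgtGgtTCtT
Rps4x: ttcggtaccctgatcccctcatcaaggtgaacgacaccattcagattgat
Rps4l: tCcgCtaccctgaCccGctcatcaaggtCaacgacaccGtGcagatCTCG
Rpl39: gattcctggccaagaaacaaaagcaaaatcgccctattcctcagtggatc
Rpl39l: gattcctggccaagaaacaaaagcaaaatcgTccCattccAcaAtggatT

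The first pair lies at chr10:23786792-23786841 (minus strand, Rps12) and chr7:56014069-56014118 (plus strand, Rps12l1) and shows no difference, so a read of this length from 1 locus also fits the other. The Rps27 stretch at chr3:90212995-90213044 (minus strand) and that of Rps27rt at chr9:114982543-114982592 (minus strand) are also alike, whereas Rps27l at chr9:66947587-66947636 (plus strand) differs at 14 of the 50 bases. Rps4x at chrX:102186439-102186488 (minus strand) and Rps4l at chr6:148355149-148355198 (plus strand) differ at 11 bases, and Rpl39 at chrX:37084011-37084060 (minus strand) and Rpl39l at chr16:10174341-10174390 (plus strand) at 5. A read over such a stretch tells the members of the latter pairs apart.

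The start sites were read in the same way. A TOP-like tract was searched for on the gene's strand alone, as a C followed by at least 5 further C or T that begins between 10 bases before and 15 bases after an annotated RefSeq start. Such a tract was found in 38 of the 68 members with a RefSeq promoter entry (55.9%) and in 4357 of all 16888 genes of the tables with an entry (25.8%). The lines below show 30 bases around the start of those members that hold a tract among the 10 with the smallest p-values in latent TCs, with the tract in capitals (RefSeq, GRCm38.p6).
Rps21: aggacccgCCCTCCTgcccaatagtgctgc
Rps24: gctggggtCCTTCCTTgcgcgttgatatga
Rpl39: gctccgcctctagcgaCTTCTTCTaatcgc
Rps15a: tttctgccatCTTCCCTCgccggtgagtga
Rpl35a: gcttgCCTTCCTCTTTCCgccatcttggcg
Rpl31: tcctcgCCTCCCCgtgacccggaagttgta
Rplp2: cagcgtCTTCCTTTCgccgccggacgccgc

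These windows lie at chr2:180257369-180257398 (Rps21, plus strand), chr14:24490668-24490697 (Rps24, plus), chrX:37085203-37085232 (Rpl39, minus), chr7:118116128-118116157 (Rps15a, minus), chr16:33056472-33056501 (Rpl35a, plus), chr1:39367841-39367870 (Rpl31, plus) and chr7:141447641-141447670 (Rplp2, plus). A match to the tract is a description of the letters and no measurement of its use.

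Ribosomal protein genes took a larger share of the reads of TCs than of ECs, the share was higher in ECs after tumor cell injection, and it was lowest in TCs on day 3.5. In ECs the members together took 3.33%, 3.72%, 3.34% and 3.44% of all reads in the 4 mice of day 0. On day 1.5 they took 4.51%, 4.86% and 4.75%, and on day 3.5 5.15%, 4.78% and 4.13%. All 6 mice with injected TCs thus lay above the 4 uninjected mice. The mean was 3.46% ± 0.186 (SD, n = 4) on day 0, 4.70% ± 0.180 (n = 3) on day 1.5 and 4.69% ± 0.513 (n = 3) on day 3.5, which is 1.36 times and 1.35 times the level of day 0. The step from day 1.5 to day 3.5 was smaller than the spread between mice (ratio 0.996).

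In TCs the culture pool gave 17.0%. Intravascular libraries gave 14.1%, 13.04%, 12.8% and 13.1%, and extravascular libraries of the same mice 13.5%, 13.3%, 12.9% and 13.2%. Latent libraries gave 11.2%, 11.04%, 10.6% and 11.4%, and the proliferative pool 10.97%. Both gates of day 1.5 overlapped, all 4 latent libraries lay below all 8 libraries of day 1.5, and the proliferative pool lay within the range of the latent libraries. Latent TCs averaged 11.1% ± 0.322 against 13.2% ± 0.266 in extravascular TCs (n = 4 each), a difference of -2.16 percentage points. The intravascular mean of 13.3% was 3.73 points under the culture pool, which has no replicate. The 95% Wilson interval of a pool's share reached at most 0.00767 points to either side and covers counting error only.

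**Figure D1:**
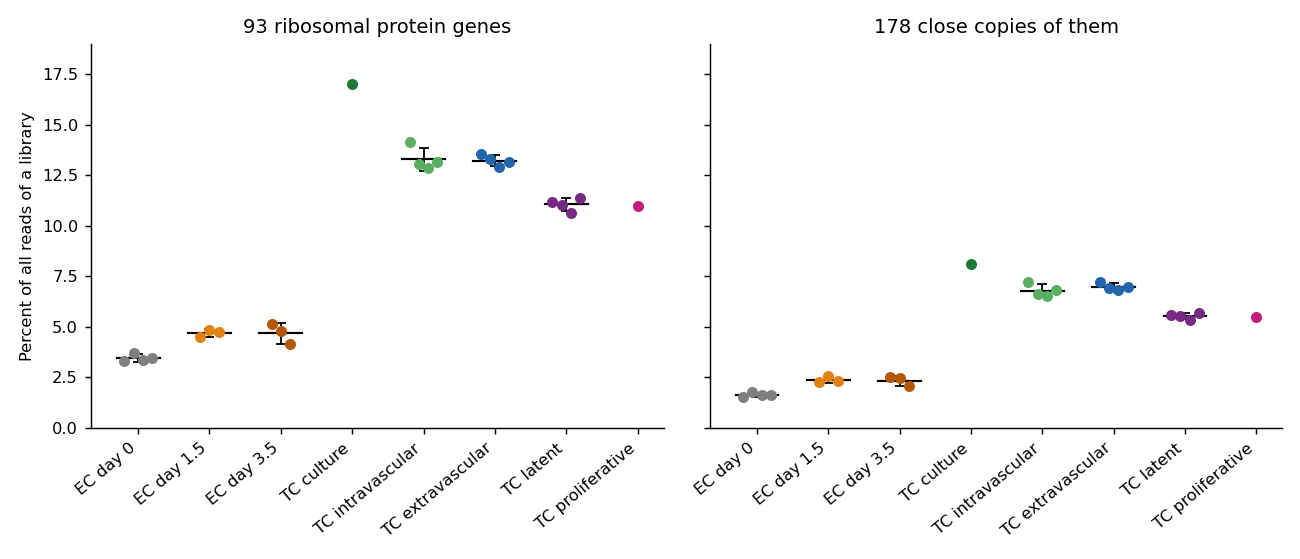
Percent of all reads of a library (vertical axis) that fell on the 93 ribosomal protein genes, by group; each point is 1 mouse or pool, and the bar is the group mean with its SD where there are replicates. All 6 EC mice of the later days lie above the 4 mice of day 0 (3.33% to 3.72%), and the 4 latent libraries (10.6% to 11.4%) lie below the 8 TC libraries of day 1.5.

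The shares of both subunits ran in parallel. In ECs the large-subunit genes had mean shares of 1.98%, 2.68% and 2.65% on days 0, 1.5 and 3.5, and the small-subunit genes 1.48%, 2.02% and 2.03%. From extravascular to latent TCs the ratio was 0.841 for the large and 0.830 for the small subunit. A lower share of the reads cannot be told apart from more RNA of other genes.

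The same held for the copies. Using shared 50-base windows, 178 other genes of the tables (100 with Gm symbols, 76 with -ps symbols) had at least 50% of their sequence in 1 member, and they were copies of 65 members. Their own share was 1.64%, 2.39% and 2.33% in ECs on days 0, 1.5 and 3.5, and 6.79%, 6.997% and 5.54% in intravascular, extravascular and latent TCs. With the copies added, the difference between day 1.5 and day 0 came to 2.00 points in ECs, and that between latent and extravascular TCs to -3.62 points.

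Members differed widely in level. Rpl41 (chr10:128548114-128549305), which encodes a very short basic peptide of the large subunit, was the highest member in every group, with 7.09% to 9.33% of all member reads. The 10 highest members together held between 32.3% and 39.7%. The median member had 282, 384 and 371 CPM in ECs on days 0, 1.5 and 3.5, and 1245 CPM in culture, 1093 in intravascular, 1042 in extravascular, 768 in latent and 797 in proliferative TCs. Per kilobase of transcript, Rpl41 was again the highest, and the members with the next levels included Rps27rt, the stalk gene Rplp1 and Rpl36 in ECs and Rplp1, Rpl32 and Rpl36 in TCs. The order of the members was much the same in both cell types, with a Spearman correlation of 0.900 between the mean CPM of ECs and TCs over the 87 members at 1 CPM or more in both. These points share a quantification and an annotation, and no test was made.

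The median member was 2.86 times as high in TCs as in ECs, and individual members departed from this. Rplp0, the scaffold of the ribosomal stalk that binds elongation factors, had 10.7 times the EC level in TCs. Rpsa, a small-subunit protein also known as the laminin receptor, had 9.22 times. Among the 87 members at 1 CPM or more in both, Rpl5, Rpl6l and Rps2 had lower means in TCs. For Rpl5, a large-subunit protein that binds the small ribosomal RNA of that subunit and the p53 regulator MDM2, the ratio was 0.197. Its level in TCs cannot be read on its own, since 98.4% of the reads of Rpl5 and its close copies in TCs were assigned to copies, chiefly to Gm15500. Rps2 was in the same position, with 97.8% on copies.

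Rps4l stood apart from the other members. This intronless relative of Rps4x (chr6:148354656-148355598) lies within the locus of Tmtc1 on the other strand, and the protocol does not keep strand. Its level was 168, 164, 74.4 and 170.0 CPM in the 4 day 0 EC libraries, 165, 53.4 and 78.2 CPM on day 1.5, and 107, 98.5 and 108 CPM on day 3.5. It was at 0 in each of the 14 TC libraries. Reads of Rps4l were found in 424 of 2479 kept ECs (17.1%; 15.9%, 17.7% and 17.7% on days 0, 1.5 and 3.5) and in 0 of 1566 kept TCs, a count that allows up to 0.192% of TCs with a read. This limit covers counting error over pooled cells only, not the spread between mice, and does not bound the share of cells that express the gene. Rps4x, by contrast, was detected in 62.3% of ECs and in 1561 of 1566 TCs. The other tissue-restricted like-genes were close to absent from both cell types, as Rpl3l, Rpl10l and Rpl39l had reads in 7, 1 and 8 TCs and in 0, 1 and 7 ECs.

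The next comparison asks what distinguishes dye-retaining TCs on day 3.5 from TCs that had left the vessels on day 1.5. Most ribosomal protein genes were lower in latent TCs, and Rpl39, Rpl37rt, Rps21 and Rpl22l1 had the largest falls. Of the 90 members that passed the filter on low counts, 63 fell and 0 rose at an adjusted p under 0.05 (edgeR quasi-likelihood test, Benjamini-Hochberg over 19249 genes). Over all genes tested, 4.97% fell and 3.6% rose. The median member changed by -0.46 on the log2 scale, against 0.03 for all genes, and 6 of the 90 members had a log2 fold change above 0, against 51.5% of all genes. Highly expressed genes fell more often, as 27.7% of the 1519 genes with at least 100 CPM were lower, among them 61 of the 81 members at this level. The median of these 1519 genes was -0.13.

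Rpl37rt, a processed copy of Rpl37 that is transcribed (chr5:115102923-115110268), had 1595, 1352, 1432 and 1313 CPM in extravascular libraries and 759, 679, 692 and 745 CPM in latent libraries. Every latent library lay below every extravascular one. The log2 fold change was -1.12 (SE 0.083, adjusted p 1.2e-05, edgeR).

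Rps21, a short protein of the small subunit, had 572, 564, 611 and 550.1 CPM in extravascular and 338, 264, 303 and 287 CPM in latent libraries (log2 fold change -1.08, SE 0.088, adjusted p 1.7e-05, edgeR). Rpl39, which lines the exit tunnel of the large subunit, had 1038, 942, 951 and 913 CPM in extravascular and 543, 413, 429.9 and 469.9 CPM in latent libraries (-1.19, SE 0.104, adjusted p 2.4e-05). Neither gene had a latent library within the extravascular range.

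Rpl41 had 12535, 12075, 12516 and 12213 CPM in extravascular and 8177, 7051, 7752 and 8390.0 CPM in latent libraries (-0.79, SE 0.0746, adjusted p 4e-05, edgeR). This single gene made up 20.8% of the summed difference between the groups, and 10 members made up 51.4%. The stalk gene Rplp2, whose acidic protein pairs with Rplp1, had 2413, 2251, 2338 and 2172 CPM against 1439.9, 1280.5, 1330.1 and 1508 CPM (-0.86, SE 0.0817, adjusted p 4e-05). Rplp1 fell by 0.40 on the log2 scale (-0.26 with libraries scaled by their totals).

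Another 5 members completed the 10 with the smallest p-values. They were Rps24 (from 1634 to 1113 CPM), Rps15a (1032 to 716), Rpl35a (571 to 370.3), Rpl31 (720.4 to 493) and Rpl23 (718 to 464), each without overlap between the groups.

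The members without a call were mostly those of longer proteins. Rplp0 had 3574, 4925, 4122 and 4558 CPM in extravascular and 5685, 5815, 5203 and 5834 CPM in latent libraries, the only member with all latent libraries above all extravascular ones, but its log2 fold change of 0.25 did not pass the test (adjusted p 0.163, edgeR). With library totals as the only scaling it did pass (0.39, adjusted p 0.0171). Rpsa had 4591, 5189, 5007 and 5593 CPM in extravascular and 5421, 5501, 5385 and 6029 CPM in latent libraries, with an adjusted p of 0.994. Rps6, the substrate of the S6 kinases, overlapped between groups as well (681 to 716 and 667 to 768 CPM, adjusted p 0.339). Of the 3 stalk genes, Rplp1 and Rplp2 fell and Rplp0 was not called; the difference between them was not tested.

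Counted over libraries rather than by test, 60 of 90 members had all latent libraries below all extravascular ones and 1 had them above, against 6.24% and 10.4% of all genes tested. The number called was 63 by the main test, 60 when libraries were scaled by their totals (59 lower and Rplp0 higher), 65 with DESeq2, 59 lower and 4 higher with limma on the authors' log10 values, and 66 with the reads of close copies added to their member, and between 61 and 64 when any 1 library of these groups was left out. Of all genes, 3.49% were lower and 5.65% higher with totals, 5.77% and 5.33% with DESeq2, 7.78% and 32.5% with limma, 4.69% and 3.45% with added copies, and 3.78% to 4.46% and 2.41% to 3.21% with 1 library left out. Scaling by totals shifted the median of all genes to 0.16 and that of the members to -0.33, so the members still lay below the bulk of genes.

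**Figure D2:**
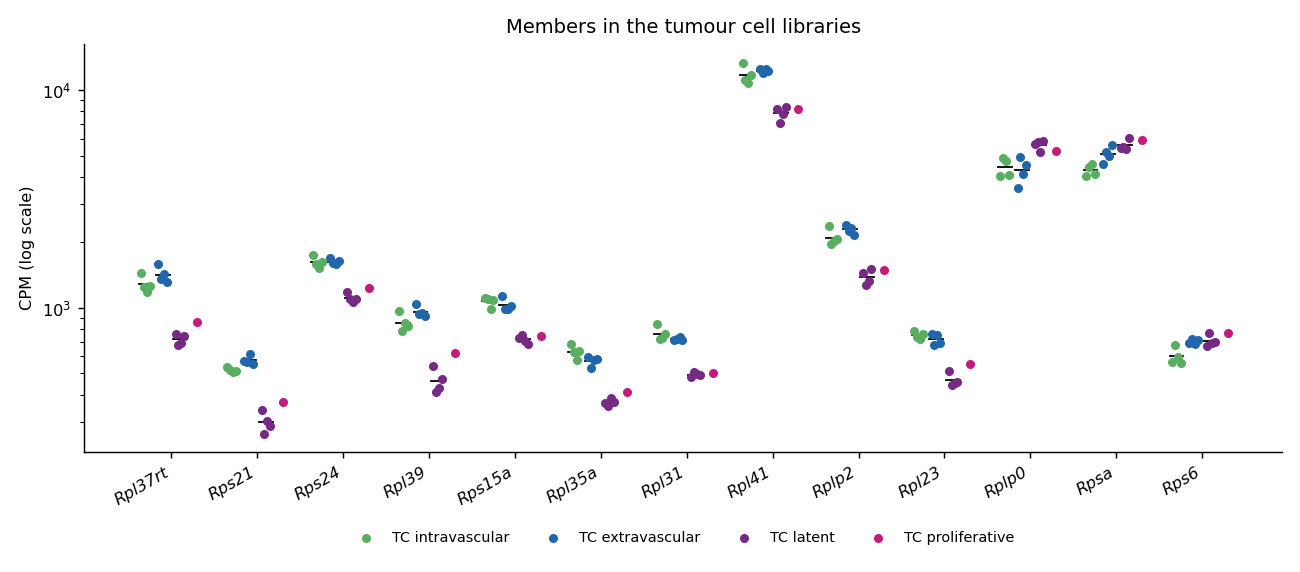
CPM of 13 members (log axis) in intravascular, extravascular, latent and proliferative TC libraries, each point 1 library: the 10 members with the smallest p-values for latent against extravascular TCs, then Rplp0, Rpsa and Rps6. For the first 10, every latent library lies below every extravascular one (Rpl41 at 7051 to 8390.0 against 12075 to 12535 CPM), whereas the latent libraries of Rpsa and Rps6 overlap the extravascular ones and those of Rplp0 lie above them.

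The size of the fall went with the length of the coding sequence. Over the 84 tested members with an annotated coding sequence, the Spearman correlation of the log2 fold change with coding length was 0.737. The 28 shortest (138 to 399 bases) had a median of -0.71 and 27 were called, the middle 28 a median of -0.44 with 25 called, and the longest 28 (582 to 1257 bases) a median of -0.17 with 8 called. Other genes with at least 100 CPM showed a weaker relation (0.140 over 1272 genes), with 39.4%, 17.5% and 10.99% lower in the same length ranges. Of the genes longer than every member, 23.8% were lower. Between extravascular and intravascular TCs the relation was stronger in these other genes (0.491) than in the members (0.165). The members share an annotation, a library type and a common set of libraries, and these values describe the fit without a test.

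**Figure D3:**
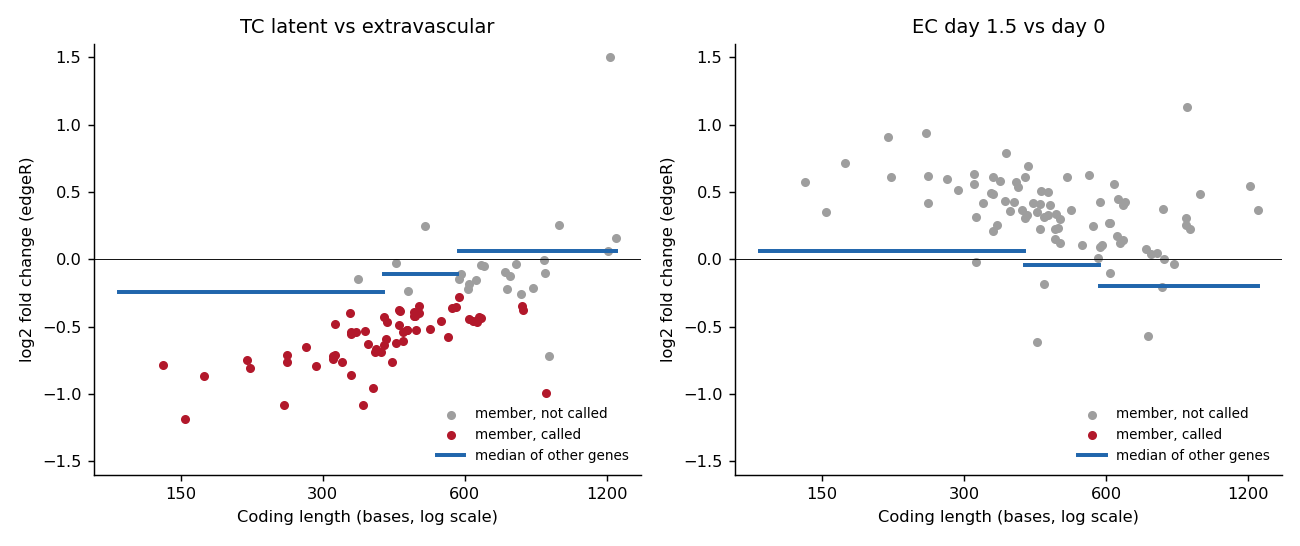
Log2 fold change of each member (vertical axis) against the length of its coding sequence in bases (horizontal axis) for latent against extravascular TCs and for day 1.5 against day 0 ECs; Rpl3l is drawn at the upper edge. In TCs short members lay lowest (Spearman 0.737 over 84), and in ECs short members lay highest (-0.470 over 83).

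A TOP-like tract marked a smaller contrast. The 37 tested members with a tract had a median of -0.54 with 27 called, the 29 without a tract a median of -0.42 with 20 called, and the 24 without a RefSeq entry a median of -0.40 with 16 called. The windows printed above were picked from the members with the smallest p-values, so the fall of these members says nothing about the tract. Most members without the tract fell as well.

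Several other measures differed between the same groups. Latent libraries had 1.61% to 2.25% mitochondrial reads against 2.61% to 3.58% in extravascular libraries, and a median of 6554.5 to 6869.5 detected genes per cell against 5721 to 6080.5. Cycling markers (8 genes) summed to 1340 to 1552 CPM against 1044 to 1228 CPM, and erythroid and platelet markers (6 genes) to 8.29 to 24.7 CPM against 3.40 to 6.27 CPM. When cells were split within each library by the number of detected genes, the share in latent libraries was 11.7% to 12.5% in cells with fewer genes and 10.03% to 10.8% in cells with more genes. The extravascular ranges were 13.7% to 14.7% and 12.04% to 13.05%, so the groups did not overlap in either class of cells. The split was made within each library, so the classes are not matched between groups for the number of detected genes. Latent cells with fewer genes overlapped extravascular cells with more genes. The groups also differed in day, mouse and sequencing lane, and these cannot be told apart from the gate.

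Related gene lists other than the copies had smaller median changes. Among 16 translation factors and other genes known for TOP messages, 3 fell (Npm1, Tpt1 and Naca) and 0 rose, with a median of -0.23. No gene with an Eef or Eif symbol was among those that fell. Among 37 ribosome biogenesis genes, 7 fell and 0 rose, with a median of -0.21, among them the nucleolar genes Ncl (-0.49, adjusted p 0.000658, edgeR) and Nop58 (-0.76, adjusted p 0.00163). Of 78 mitochondrial ribosomal protein genes 10 fell and 3 rose (median -0.15). Of the copies, 66 of 177 tested close copies (median -0.58) and 36 of 225 tested -ps genes (median -0.61) were lower and 0 higher. These counts stand against 4.97% lower and 3.6% higher over all genes.

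The second comparison sets TCs that had left the vessels against TCs still within them, in the same 4 mice on the same day. Few ribosomal protein genes passed the test here. Rpl13, Rpl15 and Rps18 fell and Rps12l1 rose among 90 tested members (edgeR, adjusted p under 0.05), where 0.535% of all genes fell and 0.416% rose. The median member was -0.12, against -0.01 for all genes, and 23 of the 90 members lay above 0, against 48.1% of all genes. The 1519 genes with at least 100 CPM were close to the members, with a median of -0.11, 62.4% below 0 and 4.81% called lower. The 81 members at this level had a median of -0.12, and the 4 called members were among them. At an unadjusted p under 0.05, 34 members were lower and 6 higher, against 9.38% and 8.19% of all genes. With library totals as the only scaling these were 14 and 13 (7.49% and 10.7% of all genes) with 39 above 0 (53.5%), and with close copies added 20 and 11 (9.31% and 8.17%) with 32 above 0 (48.1%), so the balance of lower and higher members depended on these choices.

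Rpl13, a large-subunit protein, had 3038, 2785, 2749 and 3037 CPM in intravascular and 2435, 2302, 2249 and 2256 CPM in extravascular libraries (-0.41, SE 0.0465, adjusted p 0.00321, edgeR). Rpl15, also of the large subunit, went from 1158, 1160.4, 1217 and 1056 CPM to 926, 829, 794 and 823 CPM (-0.52, SE 0.0734, adjusted p 0.0137). Rps18, at the head of the small subunit, went from 1817, 1676, 1657 and 1698 CPM to 1546, 1285, 1237 and 1305 CPM (-0.43, SE 0.0701, adjusted p 0.0253). None of the 3 had overlapping groups. Rps18 lost its call in 6 alternatives (adjusted p up to 0.0982), with -0.25 when the reads of close copies were added, and Rpl15 lost it in 3 (adjusted p up to 0.0616) and had -0.31 with the copies added. Rpl13 and Rps18 stayed near their extravascular levels in latent cells (2222 to 2394 and 1177 to 1347 CPM), while Rpl15 fell again, from a mean of 843 to 684 CPM.

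Rps12l1 had 1302, 1032, 1047 and 1162 CPM in intravascular, 1565, 1590.0, 1599 and 1588 CPM in extravascular and 1023, 965, 942 and 1130.1 CPM in latent libraries. Among TCs taken from mice it was highest in the extravascular group (0.41, SE 0.0863, adjusted p 0.0472 against intravascular; -0.78 in latent against extravascular, adjusted p 0.000121), and the culture pool had 1724 CPM. The call against intravascular TCs was lost in 10 alternatives with edgeR (adjusted p up to 0.129), the block on 8 libraries and the added copies among them. All 350 of its windows also occur in Rps12, whose own level was 55.2 to 62.6, 66.4 to 77.7 and 51.2 to 55.2 CPM in these groups. The assignment of reads between the pair is the authors' estimate.

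Without overlap between groups, 10 members were higher and 8 lower in extravascular TCs, against 5.29% and 3.13% of all genes. The calls of this comparison were not stable. Leaving out extravascular library 1 gave 11 calls (2.7% of all genes called in either direction), leaving out library 3 or 4 gave 1 each (0.0521% and 0.0419%), and leaving out intravascular library 1, 2 or 4 gave 2 each (0.0792%, 0.125% and 0.0419%). Without extravascular library 2 or intravascular library 3 there were 3 each (0.413% and 0.294%). With the mouse as a block the count was 12 without the proliferative pool (2.37%) and 2 on the 8 libraries of both gates alone (0.231%). Rpl13 kept its call in each of the edgeR and DESeq2 alternatives, and the median of the members turned to 0.09 with log values centred on each library's median. DESeq2 called 14 members lower and 3 higher (2.71% and 2.76% of all genes), limma on the authors' log10 values 7 lower and 3 higher (13.5% and 1.57%), and centred limma 1 lower and 9 higher (7.83% and 4.65%). This comparison and the one before share the extravascular libraries.

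TCs taken from culture give a starting point, although without a replicate. Between culture and the vessels the largest differences in CPM were in Rpsa (8485 to a mean of 4307 CPM) and Rplp0 (8483 to 4426 CPM). Neither of these abundant genes was called between extravascular and latent TCs. Of 88 members at 1 CPM or more, 57 had all 4 intravascular libraries below the pool and 18 had all 4 above it, against 32.6% and 25.9% of the 12657 genes at this level. The log2 ratio had a Spearman correlation of -0.323 with coding length over 83 members, of the opposite sign to that in latent cells.

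Latent and proliferative TCs of day 3.5 were compared as 4 libraries against 1 pool, whose spread had to be taken from the other groups. By the deposited annotation, the pool came from the mouse of latent replicate 4, and the fit treats both as independent. The paper describes 4 replicates for each gate, so the origin of the pool is not settled. All latent libraries lay above the pool for 26 members and below it for 27, against 19.2% and 21.2% of all genes. The edgeR test called 0 of 90 members and 0.0% of 19249 genes, with 2 members higher and 5 lower at an unadjusted p under 0.05, where the background was 2.2% and 2.88%. DESeq2 and limma also called 0 members, while they called 0.416% and 0.926% of all genes. The median member differed by -0.03. Cycling markers (8 genes) summed to 1340 to 1552 CPM in latent libraries and to 1649 CPM in the pool. The paper reports that its gates were not of high purity and kept only noncycling latent cells for its own comparison. That restriction was not made here. The members with the smallest p-values were Rpl7l1 (-0.63), Rpl12 (0.65), Rpl39 (-0.43), Rpl35 (0.30) and Rps21 (-0.32), all given as values without a call. Levels of Rpl39 were 413 to 543 CPM in latent libraries and 620.1 CPM in the proliferative pool, and those of Rps21 264 to 338 and 369 CPM.

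**Figure D4:**
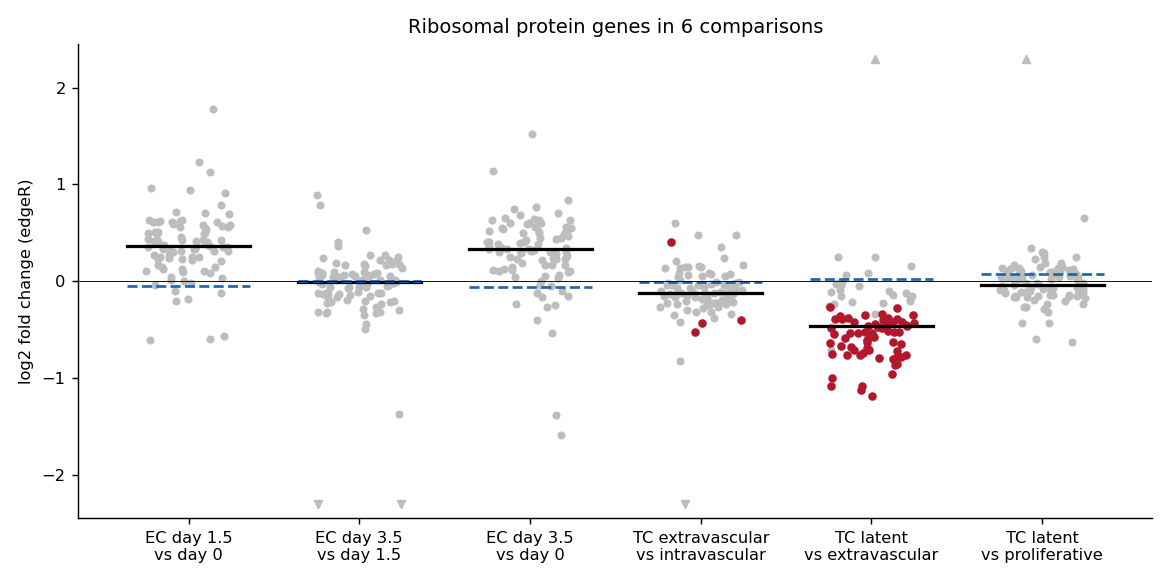
Log2 fold change (vertical axis) of the 90 tested members in each of 6 comparisons, 1 point per member, with members at an adjusted p under 0.05 in red, the members' median as a black line, the median of all genes tested as a dashed blue line, and triangles for members beyond the axis. Red points fill the lower side for latent against extravascular TCs (63 members), and no member is red in ECs.

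The EC comparisons ask how lung endothelium changed after TCs arrived. Ribosomal protein genes lay higher on both days after injection, but no single gene passed the edgeR test. From day 0 to day 1.5, 81 of the 90 tested members had a log2 fold change above 0, against 47.2% of all 17585 genes, and the median was 0.37 against -0.05. The edgeR test called 0 members and 0 genes (0.0%), with 26 members higher and 0 lower at an unadjusted p under 0.05, against 4.49% and 3.59% of all genes. DESeq2 called 2 members higher (Rps20, adjusted p 0.0405, and Rps26; 0.946% of all genes), and limma on the authors' log10 values called 23 higher (2.64%), or 12 with each library centred on its median (1.07%). Without overlap between the groups, 32 members were higher on day 1.5 (4.7% of all genes) and 0 were lower (2.78%).

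The members with the smallest p-values illustrate the size of the difference. Rps12l1 had 159, 280.2, 216 and 141 CPM on day 0 and 315, 457 and 443 CPM on day 1.5 (0.96, SE 0.253, adjusted p 0.423, edgeR). Rpl32 had 496, 695, 531 and 579 CPM and then 881, 844 and 1029 CPM (0.61, SE 0.168, adjusted p 0.452). Rps20 had 235, 278, 274 and 263 CPM and then 416, 358 and 454 CPM (0.58, SE 0.169, adjusted p 0.473). In each case the lowest mouse of day 1.5 lay above the highest of day 0.

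Rps29, a small zinc-finger protein, had 501, 566, 450.1 and 618 CPM on day 0 and 722, 1109 and 913 CPM on day 1.5. Rps21 had 135, 123, 104 and 163 CPM and then 195, 374 and 220.3 CPM. Rpl41 went from 2218, 2537, 2469 and 2607 CPM to 3179, 4748 and 3536 CPM and made up 10.95% of the summed difference. Its second mouse of day 1.5 was the highest EC library for this gene.

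From day 0 to day 3.5 the picture was alike, and both comparisons share the day 0 mice. Of the 90 members, 77 lay above 0 (46.7% of all genes), with a median of 0.33 against -0.06, and 34 were higher and 0 lower without overlap (background 4.87% and 3.0%). The edgeR test called 0 members, with 25 higher and 0 lower at an unadjusted p under 0.05 (background 4.62% and 4.14%), DESeq2 called 2 higher (adjusted p 0.0147 for Rps20; 1.17% of all genes), and limma called 53 higher (4.05%), or 21 after centring (1.03%).

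Rps19, the protein most often altered in Diamond-Blackfan anemia, had 1254, 1185, 1011 and 1047 CPM on day 0, 1528, 1778 and 1493 CPM on day 1.5 and 1978, 1697 and 1471 CPM on day 3.5. Rps16 had 227, 356, 227 and 275 CPM on day 0, 444, 333 and 429 CPM on day 1.5 and 436, 499 and 497 CPM on day 3.5. The mice of day 3.5 lay above all mice of day 0 for both genes, while the groups of day 1.5 and day 0 overlapped for Rps16.

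Other members overlapped between the days. Rplp0 had 430.0, 369.6, 464 and 345 CPM on day 0, 853, 381 and 511 CPM on day 1.5 and 394, 565 and 457 CPM on day 3.5, with overlapping groups. Rps6 had 164 to 197, 116 to 231 and 184 to 204 CPM on the 3 days, and Rps7 189 to 285, 256 to 285 and 271 to 316 CPM. Between day 1.5 and day 3.5, edgeR, DESeq2 and limma called 0 members and 0.0%, 0.558% and 0.0192% of all genes (0 higher and 2 lower at an unadjusted p under 0.05, background 1.98% and 2.56%), 0 members were higher and 4 lower without overlap (4.7% and 4.99% of all genes), and the median was near 0.

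**Figure D5:**
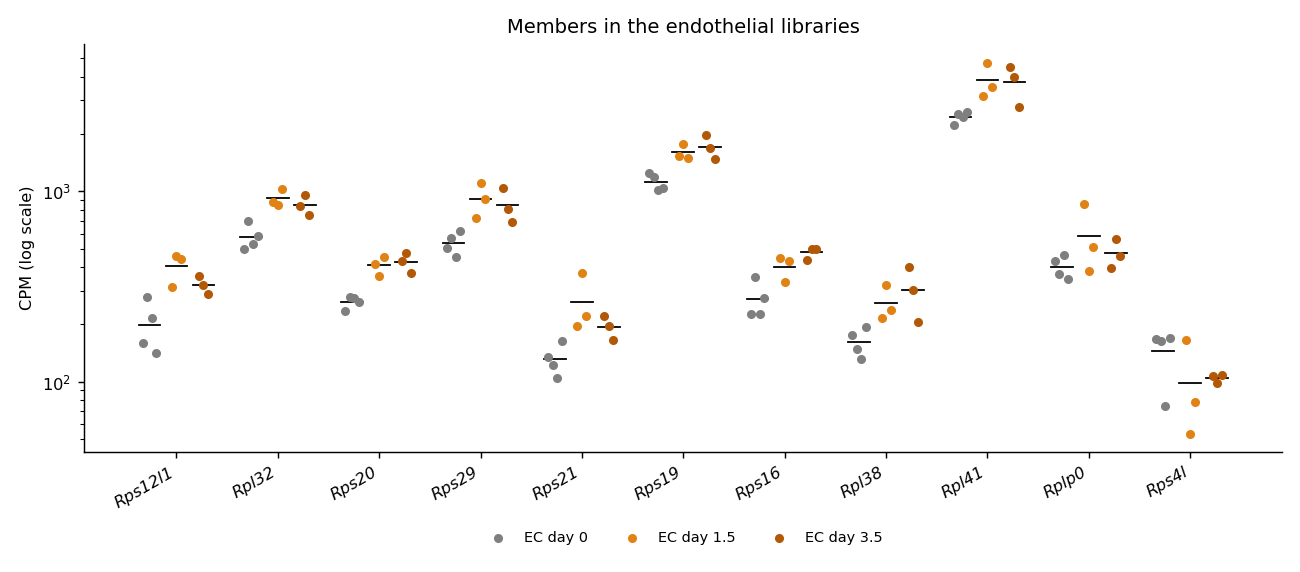
CPM of 11 members (log axis) in EC libraries of day 0, day 1.5 and day 3.5, each point 1 mouse. Rpl32, Rps20 and Rps19 lie higher in all mice of both later days than on day 0, whereas Rplp0 and Rps4l overlap between days.

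The pattern with coding length ran the other way in ECs. The Spearman correlation of the day 1.5 to day 0 log2 fold change with coding length was -0.470 over 83 members, with medians of 0.53, 0.33 and 0.24 in the shortest, middle and longest members. It was -0.451 for day 3.5 against day 0, and -0.158 and -0.114 over 1696 other genes with at least 100 CPM. The 3 lowest of the day 1.5 comparison were Rps19bp1 (-0.61), Rps4l (-0.60) and Rpl7l1 (-0.57), genes that are not core subunits.

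Day 0 mice were sorted on both days, which allows a comparison within a sort day, although the groups still differed in sequencing lane. Against the day 0 mice sorted with them, the members of day 1.5 had a median of 0.34 with 9 higher at an unadjusted p under 0.05 (4.33% of all genes), and those of day 3.5 a median of 0.41 with 13 higher (4.56%), and edgeR called 0 members in either. Cycling markers summed to 77.8 to 122 CPM on day 0, 143 to 190 CPM on day 1.5 and 169 to 280 CPM on day 3.5, endothelial markers to 8748 to 11296, 7690 to 9326 and 6996 to 8896 CPM, and erythroid and platelet markers to 223 to 2706, 65.3 to 218 and 219 to 255 CPM. Their part in the result was not tested.

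Related lists in ECs gave 0 calls by edgeR on either day. The close copies and the -ps genes had medians of 0.45 and 0.48 on day 1.5 and 0.34 and 0.33 on day 3.5. Ribosome biogenesis genes lay at -0.65 on day 1.5 and -0.08 on day 3.5. Translation factors and other genes with TOP messages lay at 0.11 and 0.16, and mitochondrial ribosomal proteins at -0.14 and -0.23.

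The balance within paralogous pairs was read per kilobase of transcript. Rpl22l1, a paralog of Rpl22, held 45.4%, 45.3% and 44.6% of the pair's level in ECs on days 0, 1.5 and 3.5. In TCs it held 34.2% in culture, 29.0% ± 2.33 in intravascular, 24.7% ± 2.53 in extravascular and 23.2% ± 0.884 in latent cells (n = 4 each), and 19.8% in the proliferative pool. Both genes fell in latent TCs, Rpl22 by 0.96 and Rpl22l1 by 1.08 on the log2 scale, so their balance there changed by less than the spread between mice. Rps27l, a p53-responsive relative of Rps27, held 37.1% to 42.8% in ECs and 43.3% in culture but 53.5% to 55.9% in TCs from mice. These values count only reads assigned to Rps27 itself. Of the reads of Rps27 and its close copy Gm17241, 65.2% in ECs and 68.8% in TCs were assigned to the copy. Reads assigned to Rps27rt were left out as well, so this balance depends on the assignment of reads. Rps27, Rps27l and Rps27rt all fell in latent TCs (-0.71, -0.74 and -0.76).

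Other pairs share part of their sequence, as 50.8% of the windows of Rps12 occur in Rps12l1 and 46.2% of those of Rps27 in Rps27rt. Rps12l1 took 93.4% to 97.1% of its pair in the group means and Rps27rt 67.9% to 74.0%. Across members, the median share of 50-base windows found in other genes was 35.9%, with 31 members above 50% and 4 at none. Of the 65 members with close copies, 35 had over 50% of the family's reads on copies in ECs and 35 in TCs. In all, 22 members overlap a further gene of the tables, mostly on the other strand, and without strand these reads cannot be told apart.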

How the data were processed

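The authors deposited estimated counts per gene and cell, made with Salmon 0.7.2 on GRCm38; the annotation release is not given in the sources used here. Log10 tables that the authors deposited after filtering cells defined the kept cells. Estimated counts of kept cells were summed per mouse and group, rounded, and tested with edgeR 4.0.16 (filterByExpr, TMM, quasi-likelihood, adjusted p under 0.05 by Benjamini-Hochberg over all genes; R 4.3.3), with all ECs or all TCs from mice in 1 fit. The fits were tested on simulated data. DESeq2 1.42.0 and limma 3.58.1 (on mean log10 values) were alternatives. Members and lists were chosen with earlier results of these data known. Genes were named by a rule: up to 10 called members by p-value (otherwise the 5 smallest p-values), fixed paralogs and stalk genes, and the highest members; values of some genes are not reported here. Intravascular and extravascular libraries pair by mouse, whose residuals correlated at 0.221, 0.056, 0.0705 and -0.022 (7263 genes). SMART-Seq2 reads without molecular identifiers are not independent molecules. P-values measure the spread between mice. Windows of 50 bases came from GENCODE M21, promoters from RefSeq.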

Additional observations from a re-analysis of the deposited data

Results flagged for a closer look

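Within groups of 4 libraries, 192 member levels were screened for a single library far from the other 3 (Dixon's 95% limit), and 10 passed this limit. Chance gives about 1 in 20 of such groups, which is near the number found. In ECs of day 0, replicate 3 was low for Rpl37rt (289 CPM, the others 348 to 359 CPM) and for Rps4l (74.4 CPM, the others 164 to 170.0 CPM). In intravascular TCs, replicate 1 was high for Rps20 (1186 CPM, the others 993 to 1015 CPM) and for Rps29 (1397 CPM, the others 1052 to 1062 CPM), and it also had the highest share of its gate. In extravascular TCs, replicate 1 was high for Rpl22 (773 CPM, the others 644 to 659 CPM) and for Rpl36al (1143 CPM, the others 918 to 956 CPM), and replicate 3 for Rps3a3 (1.72 CPM, the others 0.666 to 0.827 CPM). In latent TCs, replicate 2 was high for Rpl3 (344 CPM, the others 279 to 289 CPM) and for Rpl7 (1720.0 CPM, the others 1451 to 1487 CPM), and replicate 1 for Rpl6l (2.88 CPM, the others 1.38 to 1.48 CPM). Of these 10 genes, Rpl37rt, Rps29, Rpl22 and Rpl36al fell in latent TCs, where Rps4l was at 0 and the other 5 were not called.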

How the results depend on the processing

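The number of members called between latent and extravascular TCs lay between 60 and 83 in the alternatives run (83 with centred limma, which called 28.2% of all genes lower), and no called value of a named member changed sign with edgeR or DESeq2 (single genes were not followed in limma). For extravascular against intravascular TCs it was 17 with DESeq2 (14 lower), 10 with limma (7 lower) and 10 with limma after centring (1 lower, the other way from the main test), and 1 to 11 when 1 library was left out. With the mouse as a replicate block it was 12 without the proliferative pool and 2 on the 8 libraries of both gates, against 4 without a block, and for latent against extravascular TCs 64. In ECs numbers are shared but not mice, and the replicate block called 0 members. For day 1.5 against day 0, DESeq2 called 2, limma 23 and centred limma 12, and for day 3.5 against day 0 they called 2, 53 and 21. The share differences held their sign except between neighbouring groups that overlapped. Adding -ps symbols or close copies gave 1.54 and 2.00 points for day 1.5 against day 0, 1.92 with close copies for day 3.5 against day 0, -2.83 and -3.62 for latent against extravascular TCs, and -4.57 and -5.05 for intravascular TCs against culture. Without cells above 5% mitochondrial reads the latent difference was -2.52, and as a mean over single cells the culture difference was -4.32. Leaving out 1 library gave 1.17 to 1.34 (day 1.5) and 0.997 to 1.50 (day 3.5) against day 0, and -2.27 to -2.02 for latent against extravascular TCs. Among named members, 2349 values stayed on their side of the threshold, 19 gained and 20 lost a call; Rps7 in latent TCs lost it only with library totals (-0.14, adjusted p 0.171). Centred limma, close copies, the block on 8 libraries and the sort-day fits were chosen after seeing the data. The fits with 4 proliferative replicates, and their block, were not run, because the raw columns carry no replicate and the annotation names 1 mouse. The cause of these shifts was not tested. Low members such as Rpl10l, Rpl39l and Rps3a3 had few reads, and the part of depth in their levels was not tested.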

Other observations

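ECs outside the capillary table carried a larger share of ribosomal protein reads than capillary ECs of the same mouse. The authors deposited a table of capillary ECs next to that of all kept ECs, and 8 to 34 kept cells per mouse were not in it. In those cells the share was 3.84% to 6.48% on day 0, 6.13% to 6.86% on day 1.5 and 6.46% to 7.24% on day 3.5, against 3.26% to 3.52%, 4.32% to 4.76% and 3.95% to 4.94% in capillary ECs. It was higher outside the capillary table in 10 of 10 mice.

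In TCs the share was higher in the cells with fewer detected genes, in 14 of 14 libraries. The culture pool had 18.2% in cells below and 16.2% in cells above the median number of genes, and the proliferative pool 12.3% and 9.94%. In ECs the order was mixed, with a higher share in the cells with fewer genes in 5 of 10 libraries.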
